A study of Homo sapiens with 49 samples.

Results

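Transcripts of 9 genes of the p53 network were followed through 2 doxycycline time courses in human neuroblastoma cells. They were taken by symbol from all 23621 genes of the deposited expression tables, and each symbol had a row in both experiments: MDM2, MDM4, AEN, BBC3, BAX, PMAIP1, GADD45A, SESN1 and TP53INP1. SHEP-21N cells carry MYCN under tetracycline-repressible (TET-off) control, and doxycycline at 0.2 µg/ml was added to shut the gene down. Their groups were 0 h (2 libraries) and 2, 4, 6, 8, 16 and 24 h (3 libraries each). BE(2)-C cells carry a doxycycline-inducible (TET-on) short hairpin RNA against TWIST1, and received 0.5 µg/ml. Their groups were no doxycycline (3 libraries) and 3, 6, 12, 24 and 48 h (3 libraries each). Every library of an experiment comes from the same engineered line, doxycycline without the construct was not analysed here, and the labels do not state the promoter driving either construct or whether a line is 1 clone. SHEP cells are known to carry wild-type p53 and BE(2)-C cells a mutant p53.

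The p53 protein is a transcription factor that is held at low levels in unstressed cells. MDM2 is the ubiquitin ligase that binds p53 and marks it for degradation, and its own gene is a p53 target, which closes a feedback loop; MDM4 is a relative that blocks the transactivation domain of p53. Among the targets, BAX permeabilises the outer mitochondrial membrane, BBC3 (PUMA) and PMAIP1 (NOXA) are BH3-only proteins that release or activate such effectors, and AEN is a nuclease that takes part in apoptosis. GADD45A acts in growth arrest and DNA repair, SESN1 is a sestrin that restrains the growth kinase complex mTORC1, and TP53INP1 is a stress protein that promotes p53 activity. In neuroblastoma most tumours keep wild-type p53 at diagnosis, and MYCN is known both to sensitise cells to apoptosis and to activate transcription of MDM2. MYCN with its partner MAX binds the E-box CACGTG, and TWIST1 with E-proteins binds the wider class CANNTG.

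Promoters are shown for 3 members, because BAX and BBC3 hold the MYCN-type E-box and AEN holds a p53 half-site beside the largest fall described below. Of the 9 members, 7 had an entry in the RefSeq promoter table (GRCh38.p14), and 6 of them, with 11 start sites, were searched on both strands over the 250 bases before each start. The BAX window (chr19:48954625-48954874, plus strand) holds 4 CACGTG E-boxes, whose first bases lie 138, 93, 45 and 14 bases before the start. The BBC3 window (chr19:47232668-47232917, minus strand) holds 1, at 232 bases. In the AEN window (chr15:88621090-88621339, plus strand) the p53 half-site consensus lies 34 bases before the start and overlaps no CANNTG match. Capitals mark CACGTG in BAX and BBC3 and the p53 half-site in AEN, and each sequence runs 5′ to 3′ on the strand of its gene.
BAX: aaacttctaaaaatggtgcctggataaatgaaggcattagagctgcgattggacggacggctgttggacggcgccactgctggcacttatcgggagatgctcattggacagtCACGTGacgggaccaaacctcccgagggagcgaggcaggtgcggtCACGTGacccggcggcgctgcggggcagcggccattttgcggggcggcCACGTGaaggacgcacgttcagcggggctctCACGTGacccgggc
BBC3: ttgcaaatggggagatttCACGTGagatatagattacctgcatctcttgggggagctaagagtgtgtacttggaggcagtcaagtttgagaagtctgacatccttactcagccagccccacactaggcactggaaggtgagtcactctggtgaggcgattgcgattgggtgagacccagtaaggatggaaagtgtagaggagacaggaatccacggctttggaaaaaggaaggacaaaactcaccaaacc
AEN: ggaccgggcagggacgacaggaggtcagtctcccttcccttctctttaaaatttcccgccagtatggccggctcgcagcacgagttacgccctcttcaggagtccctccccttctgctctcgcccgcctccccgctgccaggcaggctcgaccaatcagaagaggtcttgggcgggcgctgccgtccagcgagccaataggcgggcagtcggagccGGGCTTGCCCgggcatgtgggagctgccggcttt
A CACGTG was present in 6.34% of 35116 RefSeq windows of this length, and 5 windows (0.0142%) held 4 or more. The p53 half-site was present in 5.57% of windows, and among the members also in 1 of the SESN1 windows. CANNTG, of which every CACGTG is a case, was present in 61.8% of windows and in 4 of the 6 members searched, so that its presence in a member separates it little from other genes. These letter matches are descriptions of the windows and say nothing of binding in these cells.

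Expression is given in FPKM (fragments per kilobase of transcript, scaled to the fragments mapped in the library), from the table the authors rescaled to ERCC spike-in RNA unless it is called unnormalised. Log2 changes are of FPKM + 1, a scale that shrinks the change of a gene near or under 1 FPKM. A gene was called changed where the Benjamini-Hochberg adjusted p of limma was under 0.05, and libraries carry the numbers of the deposited tables. In these bulk samples fewer cells of a type and less RNA per cell cannot be told apart. No label states that libraries of a group came from separate cultures, so the p-values measure the spread between these libraries, which may be technical. The index sequences listed for the 8, 16 and 24 h libraries of SHEP-21N repeat those of 0, 2 and 4 h, and sequencing pools are not named. Pool and time therefore cannot be told apart where 8, 16 or 24 h is compared with 0 h. The intended perturbations were present: MYCN went from 789 ± 93.4 FPKM (SD, n = 2) to 14.1 ± 3.05 (n = 3) after 24 h in SHEP-21N cells, and TWIST1 from 81.4 ± 10.8 to 7.81 ± 3.30 (n = 3 each) after 48 h in BE(2)-C cells. Marker genes separated the lines: all 7 mesenchymal markers reached 1 FPKM in SHEP-21N controls against 3 of 9 adrenergic neuroblastoma markers. In BE(2)-C controls all 9 adrenergic markers and 2 of 7 mesenchymal markers reached it. No marker of blood cells reached 1 FPKM in the controls of either line. Over the BE(2)-C course unnormalised HBB ran from 0 to 38.4 FPKM, while the other 4 blood markers stayed at or below 0.0909, and its part in the results was not tested.

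Through MYCN shutdown MDM2 and AEN moved in opposite directions. MDM2 rose over the first 8 h and AEN fell from 6 h onward, and by 24 h BAX, PMAIP1, GADD45A and MDM4 were also lower. BBC3 and SESN1 passed at no time on the rescaled values, and TP53INP1 was too weakly expressed to be tested with the others. Of 8 members tested, 1 was called higher and 1 lower at 6 h and at 8 h. None was higher at 16 or 24 h, where 1 and 5 were lower. Of all genes 3.17% were higher and 7.54% lower at 6 h, and 3.92% and 3.83% at 8 h. The shares were 5.13% and 3.04% at 16 h, and 6.16% and 32.4% at 24 h.

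**Figure D1:**
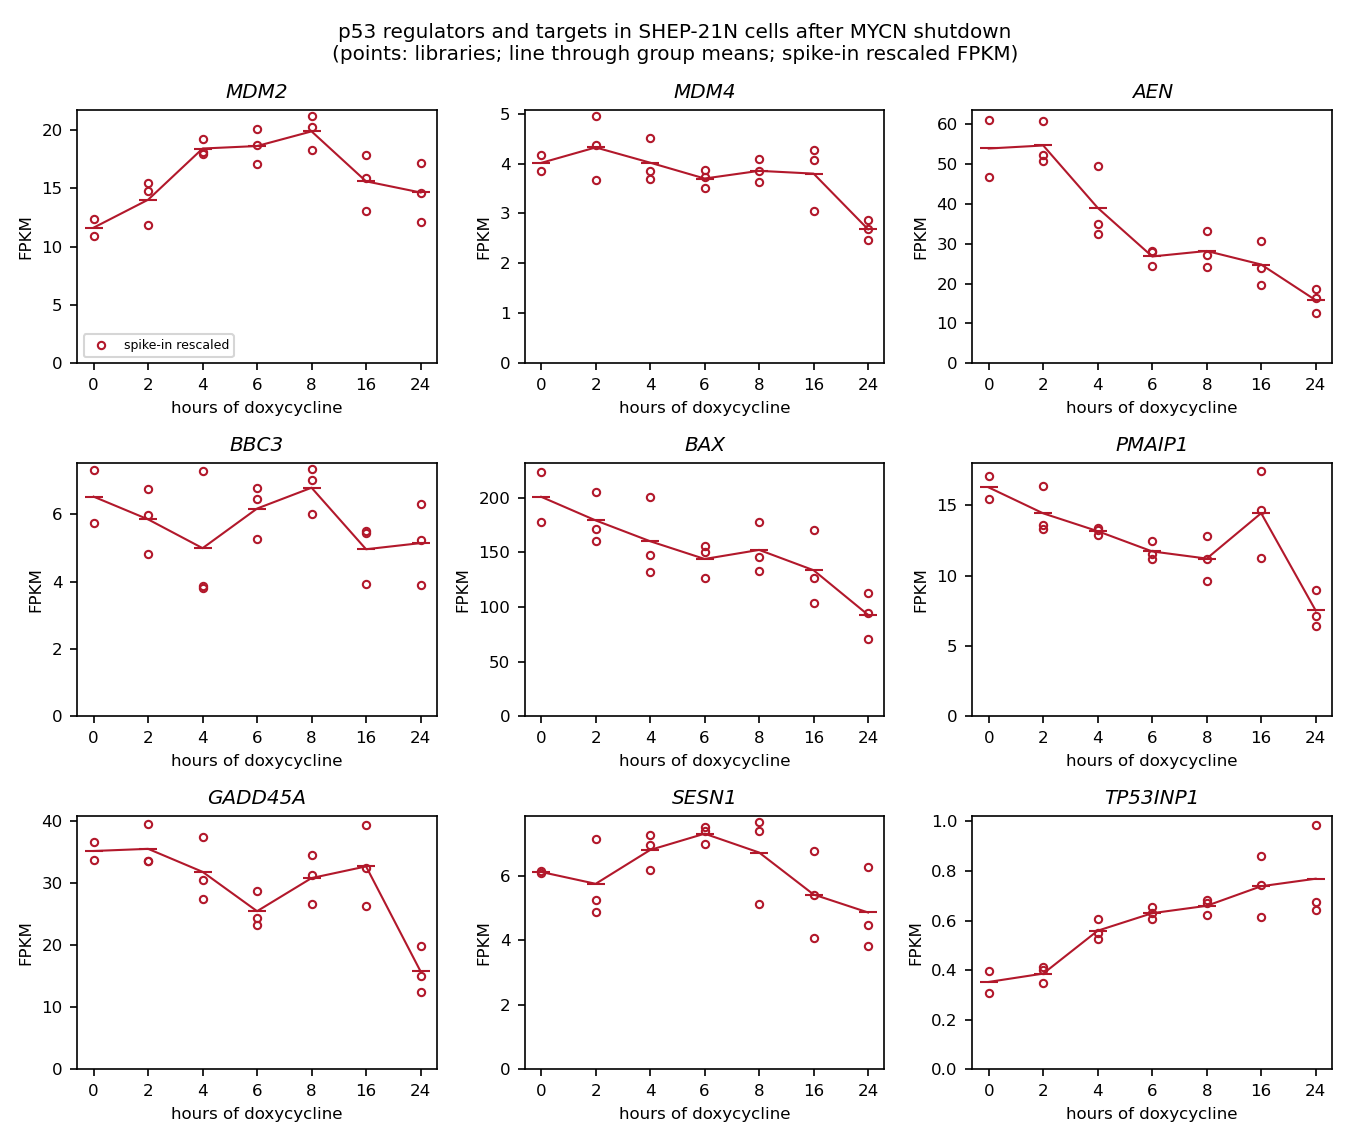
Expression of the 9 members in SHEP-21N cells by hours of doxycycline (categories on the x axis, not to scale), in spike-in rescaled FPKM on y axes that start at 0. Circles are libraries, bars and lines the group means; MDM2 peaks at 8 h at 19.9 FPKM, while AEN goes from 53.9 at 0 h to 15.8 at 24 h.

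The controls at 0 h held MDM2 at 12.4 and 10.9 FPKM. It was 15.4, 14.8 and 11.8 at 2 h, 18.0, 19.2 and 18.1 at 4 h, 18.8, 17.1 and 20.1 at 6 h, and 21.2, 20.2 and 18.3 at 8 h. From 4 h to 8 h all 9 libraries lay above both libraries of 0 h. Later values were lower again, at 13.0, 17.9 and 15.9 FPKM at 16 h and 17.2, 14.6 and 12.1 at 24 h, where the lowest library lay between the 2 controls. By group mean the order ran from 8 h over 6, 4, 16, 24 and 2 h to 0 h, and the libraries of neighbours in that order overlapped except between 4 and 16 h. The change from 0 h was +0.62 at 4 h (SE 0.159, limma adjusted p = 0.0761), +0.64 at 6 h (adjusted p = 0.0205) and, at its highest, +0.73 at 8 h (adjusted p = 0.0121). Of all genes tested, 3.17% were higher at 6 h and 3.92% at 8 h. Neither +0.39 at 16 h (limma adjusted p = 0.135) nor +0.30 at 24 h (adjusted p = 0.14) passed the threshold, though MDM2 was called at 16 h without library 0 of that time, where 10.9% of all genes were higher. With 2 control libraries the calls were not stable to leaving out 1 library. Without library 1 of 0 h the limma adjusted p was 0.0609 at 6 h and 0.0527 at 8 h, and without library 2 it was 0.333 and 0.253. The 6 h call was also lost without library 0 or 2 of 6 h (adjusted p = 0.0512 and 0.106 in limma), and the 8 h call without library 0 of 8 h (adjusted p = 0.0587).

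On the unnormalised table MDM2 was called higher at every time from 4 h on. There it stood at 11.9 and 9.32 FPKM at 0 h, at 19.6, 17.0 and 19.4 at 8 h and at 15.7, 16.3 and 16.7 at 24 h, and the libraries of 0 h and 24 h did not overlap. The changes were +0.66 at 4 h, +0.77 at 6 h, +0.77 at 8 h, +0.41 at 16 h and +0.58 at 24 h, with limma adjusted p from 6.1e-05 to 0.00686. The median of all tested genes at 24 h was -0.31 on the rescaled and -0.04 on the unnormalised values. Relative to those medians MDM2 was at +0.61 and +0.62, so that the tables differed by the shift of all genes and hardly in the place of MDM2 among them.

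MDM4 was called lower at 24 h and at no earlier time. It stood at 4.17 and 3.86 FPKM at 0 h, its groups from 2 to 16 h had means of 3.70 to 4.32, and its libraries at 24 h were at 2.88, 2.70 and 2.47, below every earlier library. The change at 24 h was -0.45 (SE 0.134, limma adjusted p = 0.016), of which the median of all genes makes up most: relative to it MDM4 was at -0.14. The call was absent on unnormalised values (-0.18, limma adjusted p = 0.0551) and on values centred on each library's median (-0.15, adjusted p = 0.211). It was also lost without library 1 (adjusted p = 0.0875) or 2 of 0 h (adjusted p = 0.0902), or library 2 of 24 h (limma adjusted p = 0.0513).

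Of the targets, AEN fell furthest and was the first called lower on rescaled values. PMAIP1, not called then, already lay below both of its controls at 4 h, at 12.9, 13.4 and 13.2 FPKM. On unnormalised values AEN, BAX and PMAIP1 were all called lower at 4 h, where 18.1% of all genes were lower. AEN stood at 46.7 and 61.0 FPKM at 0 h and 60.8, 52.3 and 50.8 at 2 h. At 4 h it was at 35.0, 32.4 and 49.5, where 1 library still lay among the controls. From 6 h on no library reached the controls: values were 28.2, 27.8 and 24.3 at 6 h, 27.1, 33.2 and 24.2 at 8 h, 19.7, 30.7 and 23.9 at 16 h, and 18.5, 16.3 and 12.7 at 24 h. The 3 libraries of 24 h lay below all the others. Changes from 0 h were -0.97 at 6 h (limma adjusted p = 0.0126), -0.91 at 8 h (adjusted p = 0.0183), -1.10 at 16 h (adjusted p = 0.0058) and, the lowest, -1.71 at 24 h (SE 0.215, adjusted p = 5.9e-05). Of all genes tested, 7.54% were lower at 6 h, 3.83% at 8 h and 3.04% at 16 h. The 24 h call held when any 1 of the 5 libraries compared was left out. The earlier calls did not: without library 2 of 0 h the limma adjusted p was 0.297 at 6 h, 0.335 at 8 h and 0.155 at 16 h. Those at 6 and 8 h were lost as well without library 2 of 6 h (adjusted p = 0.0713 in limma) and without library 0 or 2 of 8 h (adjusted p = 0.0669 and 0.0589). On unnormalised values AEN was called lower at 4 h (-0.44, limma adjusted p = 0.00213) and at each later time, with -1.44 at 24 h (adjusted p = 1.98e-09).

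BAX had the highest level of the members, and FPKM are per length. It stood at 178 and 224 FPKM at 0 h and at 113, 94.9 and 70.5 at 24 h, with group means from 179 at 2 h to 134 ± 34.1 at 16 h (n = 3) in between. The change at 24 h was -1.12 (SE 0.242, limma adjusted p = 0.00246), and no library of 24 h overlapped the controls. Without library 2 of 0 h it was -0.96 (limma adjusted p = 0.0654) and the call was lost. PMAIP1 went from 15.5 and 17.1 FPKM to 8.96, 7.16 and 6.43 at 24 h (-1.03, SE 0.166, limma adjusted p = 4e-04). Its course was not steady, since it stood at 11.2, 12.8 and 9.62 FPKM at 8 h and at 11.2, 17.4 and 14.6 at 16 h, where 1 library lay above both controls. BBC3 ranged from 3.82 to 7.35 FPKM over all 20 libraries, and its change at 24 h of -0.30 (limma adjusted p = 0.279) lay at the median of all genes.

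On rescaled values GADD45A was called at no time up to 16 h and was lower at 24 h. At 6 h its libraries, at 24.4, 28.7 and 23.2 FPKM, lay below both controls. On unnormalised values GADD45A was called lower at 6 h, where 29.8% of all genes were lower. It stood at 33.7 and 36.6 FPKM at 0 h and at 26.3, 39.3 and 32.3 at 16 h, then at 19.8, 15.1 and 12.4 at 24 h. The 24 h libraries lay below all 17 others. The change was -1.13 from 0 h (SE 0.199, limma adjusted p = 6.5e-04) and -0.94 from 8 h (adjusted p = 0.0213). The comparison of 24 h with 8 h shares no index sequence between its groups. In it AEN also passed (-0.80, limma adjusted p = 0.0465), so that 2 of 8 members were lower and none higher, where 1.33% of all genes were lower and 0.228% higher. Both these calls were lost in limma without library 0 or 1 of 8 h or library 1 or 2 of 24 h, with adjusted p from 0.0934 to 0.141 for GADD45A and from 0.167 to 0.229 for AEN. Without library 0 of 24 h 7 members were lower, and the share of all genes that were lower rose with them to 35.9%. The 24 h calls against 0 h of GADD45A and PMAIP1 held with any 1 library left out.

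SESN1 and TP53INP1 were not called lower at any time. SESN1 stood at 6.14 and 6.09 FPKM at 0 h, at 6.997, 7.40 and 7.51 at 6 h, above both controls, and at 6.26, 4.48 and 3.83 at 24 h. Its change of -0.30 at 24 h (limma adjusted p = 0.227) was that of the median gene, and at 6 h it was +0.22 (adjusted p = 0.464). On unnormalised values SESN1 was called higher at 6 h (+0.37, limma adjusted p = 0.0135). TP53INP1 missed the 1 FPKM filter on mean level and entered no test with the other members. Its unnormalised values were 0.281 and 0.181 FPKM at 0 h, 0.451, 0.588 and 0.603 at 6 h, and 0.867, 0.667 and 0.873 at 24 h, with no overlap between 0 h and either time. When all 23621 genes were fitted without the filter it was higher at 6 h (+0.27, limma adjusted p = 0.0479), 8 h (+0.30, adjusted p = 0.0342), at 16 h (+0.36, 0.0101) and 24 h (+0.38, with an adjusted p of 0.00209). Of all genes in that fit 3.5% were higher at 24 h.

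The 24 h comparison is the one in which most members were called. Of 8 tested, 5 were lower (AEN, BAX, PMAIP1, GADD45A and MDM4) and none higher, neither adjusted nor at an unadjusted p under 0.05 in limma. Of all 11867 genes tested, 32.4% were lower and 6.16% higher, so that falling at 24 h was common. The members' median change was -0.74 beside -0.31 for all genes. On unnormalised values 4 members were lower and 1, MDM2, higher, where 36.4% of all genes were lower and 28.9% higher. At 2 h and at 4 h limma called no member. Of all genes 0.0506% and 0.0758% were called lower at these times and 0.0% and 0.00843% higher. At an unadjusted p under 0.05 the member counts were 0 at 2 h, and 1 higher (MDM2) and 1 lower (AEN) at 4 h, beside 1.63% and 13.3% of all genes in either direction at that threshold. On unnormalised values the 4 h counts were 1 higher (MDM2) and 3 lower (AEN, BAX and PMAIP1), where 15.8% of all genes were higher and 18.1% lower. They were 2 higher (MDM2 and SESN1) and 4 lower (AEN, BAX, PMAIP1 and GADD45A) at 6 h, beside 26.8% and 29.8% of all genes. At 8 h MDM2 was higher and AEN, BAX and PMAIP1 were lower, beside 25.0% and 29.2%, and at 16 h MDM2 was higher and AEN and BAX were lower, beside 23.8% and 27.5%. No member was called at 2 h in limma on these values, where 0.236% of all genes were higher and 0.345% lower. At an unadjusted p under 0.05, 1 member was higher and 0 lower at 2 h, near the 11.9% of all genes that passed in either direction.

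**Figure D2:**
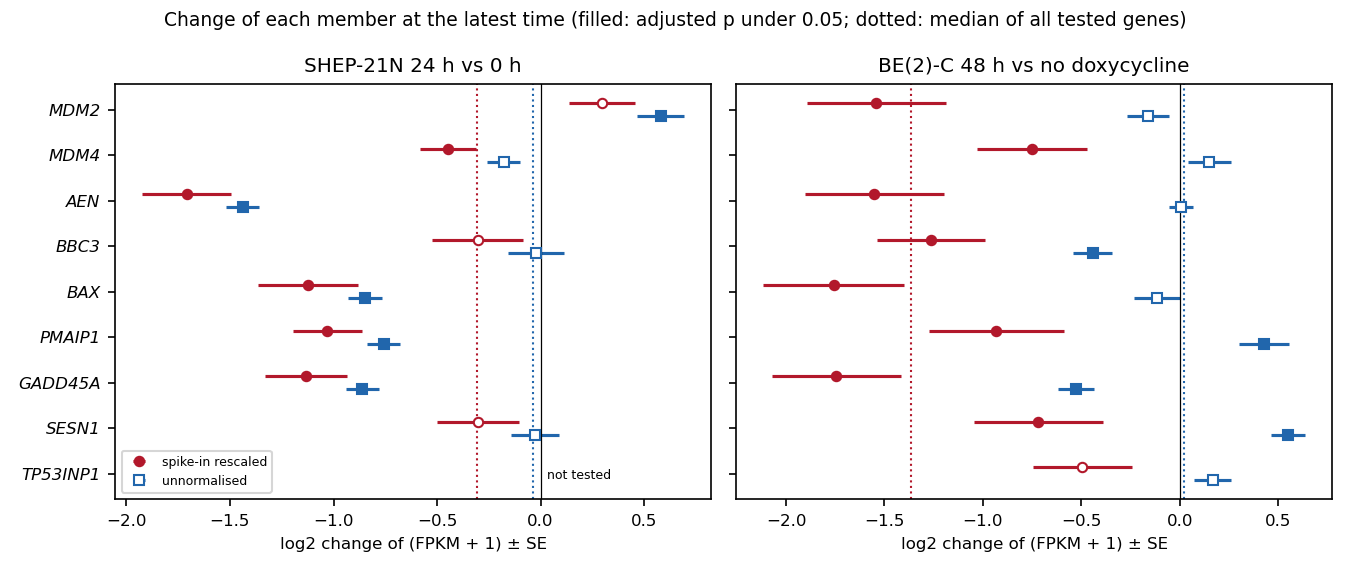
Log2 change of FPKM + 1 with its standard error for each member at 24 h of MYCN shutdown (left) and 48 h of the TWIST1 hairpin (right), on spike-in rescaled (circles) and unnormalised (squares) values; filled symbols passed adjusted p under 0.05 and dotted lines are the medians of all tested genes. On the left AEN lies lowest at -1.71 and MDM2 highest. On the right all rescaled values are falls, spread on both sides of the median of -1.36.

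The courses of MDM2 and AEN were followed within libraries, where a ratio does not depend on a library's scaling. The pair was put side by side after its values were seen, so the ratios are a description with no test. In unnormalised FPKM MDM2 was 0.26 and 0.177 times AEN in the libraries of 0 h and 0.935, 0.901 and 0.95 times AEN at 24 h. Group means went from 0.218 ± 0.0587 (n = 2) at 0 h to 0.255 at 2 h, 0.487 at 4 h, 0.702 at 6 h, 0.717 at 8 h, 0.634 at 16 h and 0.929 ± 0.0251 (n = 3) at 24 h. Every library from 4 h on lay above every library of 0 and 2 h. In BE(2)-C cells the same ratio was 0.255 in control library 1 and 0.448 and 0.449 in the other 2. At 48 h it was 0.328, 0.303 and 0.354, above control library 1, which is described below as standing apart, and below the other 2.

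**Figure D3:**
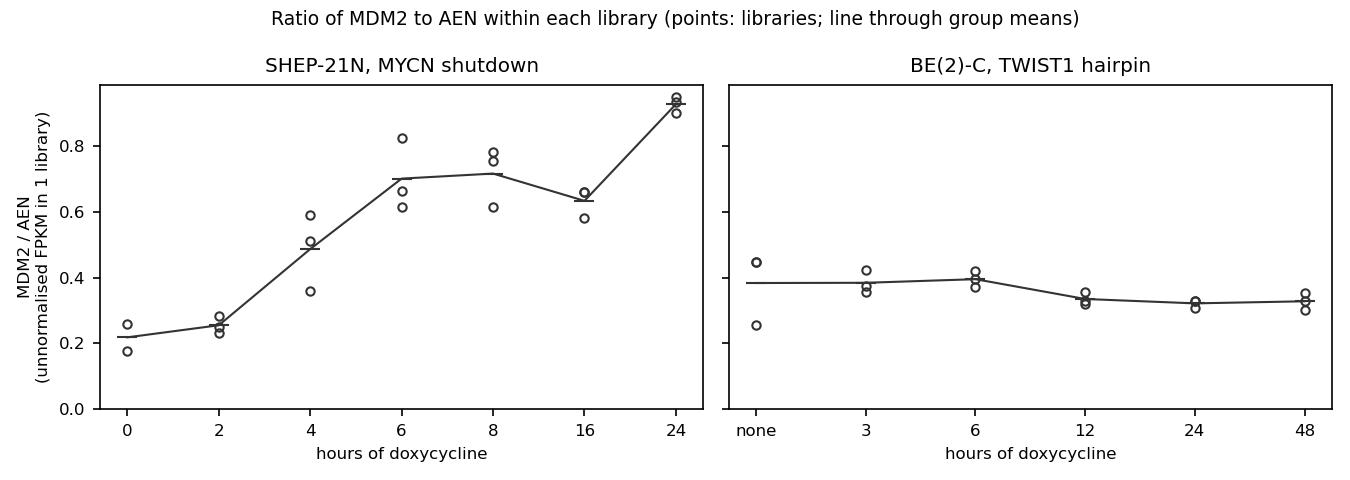
Ratio of MDM2 to AEN in unnormalised FPKM within each library (circles) by hours of doxycycline (categories, not to scale), with lines through group means, for SHEP-21N (left) and BE(2)-C (right). In SHEP-21N cells the ratio goes from 0.218 to 0.929, and in BE(2)-C cells the group means stay between 0.322 and 0.396. The BE(2)-C controls themselves run from 0.255, in library 1, to 0.449.

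Genes with a course like that of AEN were sought among the genes tested, by the root mean square difference of the log2 changes over the 6 times. Symbols starting MIR, SNOR, SCARNA, RNU, LOC, LINC or FLJ were left out of the search. The nearest were NLE1, a ribosome assembly factor, at 0.0882, and PINX1, a nucleolar telomerase inhibitor, at 0.106, where the median gene was at 0.894. NLE1 fell by 1.62 at 24 h on the log2 scale (limma adjusted p = 1.13e-04) and PINX1 fell by 1.81 (adjusted p = 5.9e-05). Both were chosen for their likeness to AEN at these same times, so their falls follow from the choice and are no further evidence. AEN was the one member that had passed in enough times for this search.

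A wider list of p53 targets and a list of proteins that modify p53 or its output set the members in their pathway at 24 h. Of 48 other targets with an entry, 40 were tested, and 3 were higher and 18 lower, with a median change of -0.36 beside -0.31 for all genes. Of all genes 6.16% were higher and 32.4% lower. SESN3, a sestrin like SESN1, rose from 1.03 ± 0.0450 to 3.40 ± 0.570 FPKM (n = 2 and 3; +1.11, limma adjusted p = 1.59e-04), and APAF1, the scaffold of the apoptosome, from 1.89 ± 0.306 to 3.42 ± 0.709 (+0.61, adjusted p = 0.00517). REV3L, the catalytic subunit of translesion polymerase zeta, rose from 1.17 ± 0.156 to 2.15 ± 0.212 FPKM (+0.54, limma adjusted p = 0.0349). APAF1 and REV3L were named because they complete the count of rises. Among those lower, GDF15, a secreted stress cytokine, went from 7.57 ± 0.843 to 2.81 ± 0.469 (-1.17, limma adjusted p = 4.67e-04). BID, a BH3-only protein like PMAIP1, went from 72.6 ± 13.4 to 35.6 ± 8.58 FPKM (-1.02, limma adjusted p = 0.00285), and GADD45B, a paralog of GADD45A, from 35.1 ± 5.42 to 18.3 ± 5.21 (-0.93, adjusted p = 0.00415). The kinase PLK3 went from 3.84 ± 0.113 to 1.45 ± 0.164 (-0.98, limma adjusted p = 8.95e-04). On unnormalised values the list split into 14 higher and 18 lower, where 28.9% of all genes were higher and 36.4% lower. Without library 2 of 0 h the rescaled counts were 1 higher and 2 lower, and without library 2 of 24 h 12 were lower. In these fits 5.9% and 16.2% of all genes were lower, and in the first 1.48% were higher. Leaving out any of library 1 of 0 h, 0 of 24 h or 1 of 24 h gave 2 higher, where 4.07%, 4.1% and 4.39% of all genes were higher.

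Of 25 p53 modulators 24 were tested, and 1 was higher and 7 lower, with a median of -0.33 beside -0.31 for all genes. Of all genes 6.16% were higher and 32.4% lower, so falls were no more frequent in this list than at large. PPP1R13L (iASPP), an inhibitor of p53, went from 7.76 ± 0.816 to 3.93 ± 0.971 FPKM (-0.85, limma adjusted p = 0.0035), and CHEK2, a checkpoint kinase that phosphorylates p53, from 12.2 ± 1.35 to 7.02 ± 1.42 (-0.73, adjusted p = 0.00602). The arginine methyltransferase PRMT5 went from 135 ± 18.2 to 73.3 ± 19.2 FPKM (-0.90, limma adjusted p = 0.00753). USP10, which removes ubiquitin from p53, was at -0.68 (adjusted p = 0.0151 in limma), and NPM1, a nucleolar protein that binds MDM2, at -0.71 (adjusted p = 0.0153). The 1 rise was TP53BP1, a DNA double-strand break adaptor, from 9.07 ± 0.425 to 13.3 ± 2.75 FPKM (+0.49, limma adjusted p = 0.0347). The counts rested on single libraries: 0 modulators were lower without library 2 of 0 h, 4 without library 1 of 0 h, 3 without library 2 of 24 h and 13 without library 0 of 24 h, and the rise was lost without any 1 library other than library 2 of 24 h. In those 4 fits 5.9%, 24.4%, 16.2% and 46.4% of all genes were lower, so that the list's count moved with that of all genes. The fits that lost the rise had 1.48% to 4.39% of all genes higher, and the fit that kept it 7.23%. Unnormalised values gave 5 higher and 9 lower, where 28.9% of all genes were higher and 36.4% lower.

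In BE(2)-C cells no member was called from 3 to 24 h of the TWIST1 hairpin on the rescaled values, and at 48 h nearly all genes were lower. The limma counts of members at an unadjusted p under 0.05 were 2 at 3 h (PMAIP1 and GADD45A), 0 at 6 and at 12 h, and 1 at 24 h (GADD45A), each of them lower. At that threshold 2.13%, 0.7%, 1.16% and 6.52% of all genes passed at 3, 6, 12 and 24 h, in either direction. At the adjusted threshold, of all 11433 genes tested, 0.0175% were lower at 3 and at 6 h, 0.0262% at 12 h and 0.586% at 24 h, and 0.0175% were higher at each. At 48 h 8 of 9 members were lower and none higher, adjusted or at an unadjusted p under 0.05, but 93.3% of all genes were lower and 0.131% higher. The members' median was -1.26 and that of all genes -1.36. The share of members called was thus that of genes at large, and each member is therefore also given on the unnormalised values, whose median change at 48 h was +0.02.

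**Figure D4:**
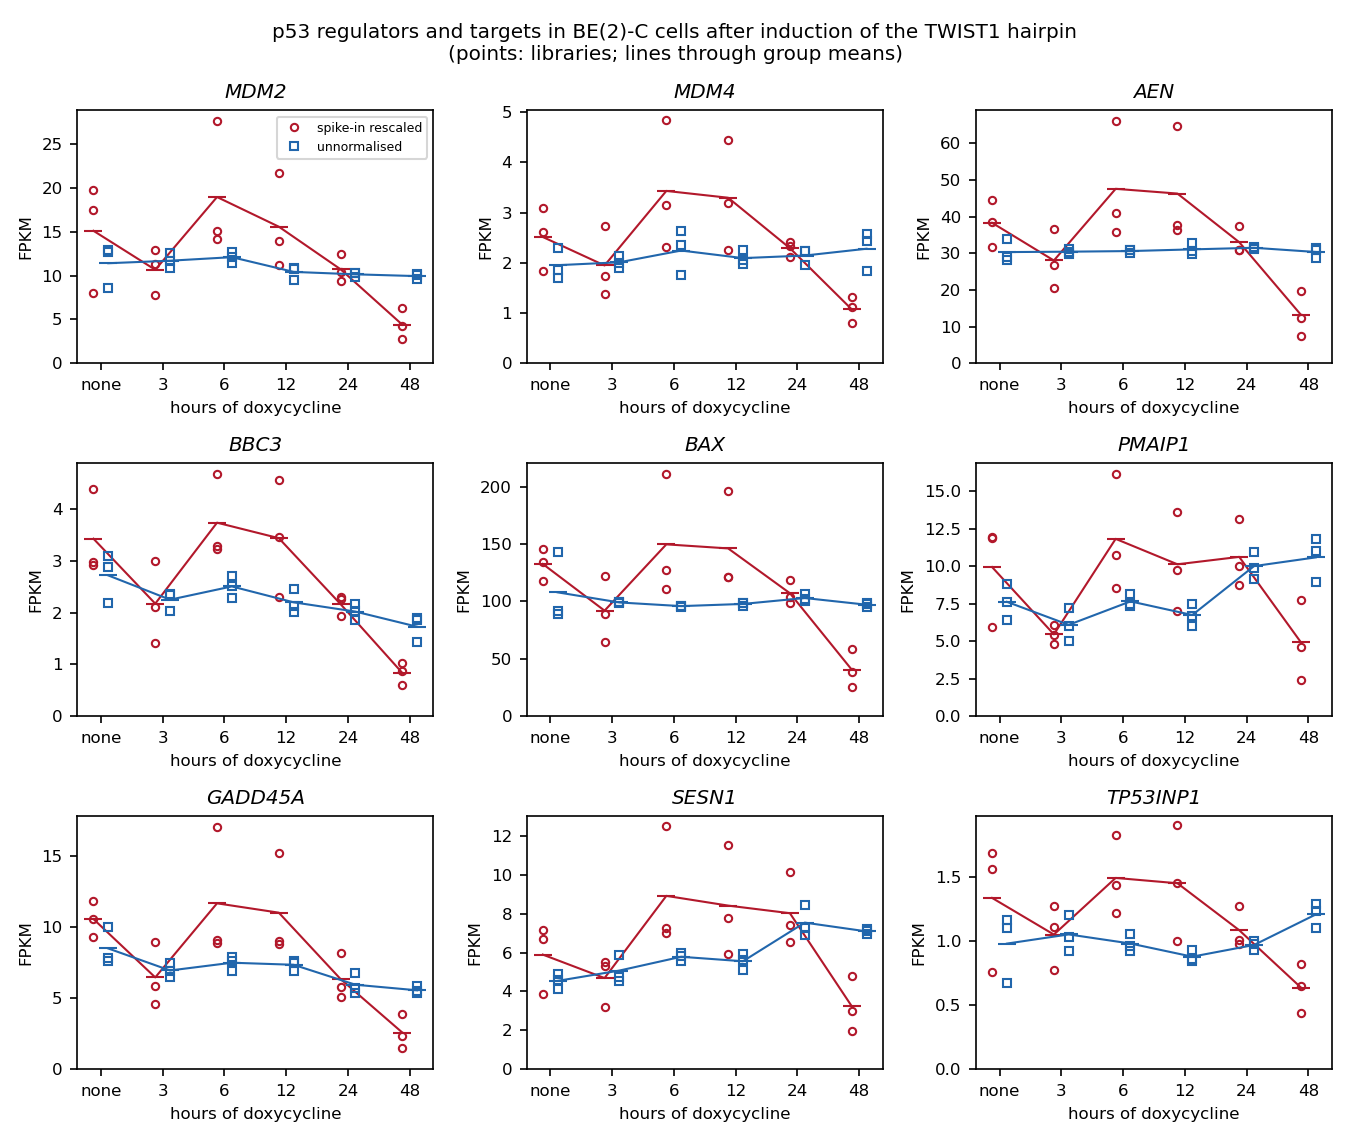
Expression of the 9 members in BE(2)-C cells by hours of doxycycline (categories, not to scale), in spike-in rescaled (circles) and unnormalised (squares) FPKM; symbols are libraries and lines join group means. At 48 h the rescaled libraries lie lowest for most members, while unnormalised SESN1 and PMAIP1 lie above their controls and GADD45A and BBC3 below.

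A pair of features of the libraries bear on every BE(2)-C value. Spike-in totals before rescaling were 57913 to 140361 FPKM in the 48 h libraries and 21429 to 36863 in the controls. Control library 1 stood apart: its Pearson r across genes with the other controls was 0.951 and 0.958, where pairs within all other groups of the experiment, and the other 2 controls, had 0.971 to 0.981. Its part in the results was examined by leaving it out on the unnormalised values, an alternative added after its values were seen.

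The sestrin SESN1 rose on unnormalised values at 24 and 48 h. Its unnormalised values were 4.10, 4.92 and 4.61 FPKM without doxycycline, 6.91, 7.29 and 8.45 at 24 h and 6.99, 7.21 and 7.09 at 48 h, with no overlap. The changes were +0.62 at 24 h (limma adjusted p = 9.54e-05) and +0.55 at 48 h (adjusted p = 1.45e-04). Without control library 1 they were +0.56 and +0.49 (limma adjusted p = 1.45e-04 and 2.83e-04). On rescaled values the 48 h change was -0.72 (limma adjusted p = 0.038), which is +0.65 relative to the median gene. PMAIP1 stood at 6.41, 8.81 and 7.63 FPKM unnormalised without doxycycline and at 11, 11.8 and 8.96 at 48 h. All 3 late libraries lay above the controls, by little for the lowest. Its change was +0.43 at 48 h (limma adjusted p = 0.0142; +0.32, adjusted p = 0.0429, without control library 1) and +0.36 at 24 h (adjusted p = 0.054).

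GADD45A and BBC3 were lower on both kinds of values. Unnormalised GADD45A was 10.0, 7.84 and 7.64 FPKM without doxycycline, 5.35, 5.70 and 6.79 at 24 h and 5.48, 5.82 and 5.36 at 48 h. Every library of 24 and 48 h lay below the controls, of which library 1 was the highest. The changes were -0.45 at 24 h (limma adjusted p = 0.00275) and -0.53 at 48 h (adjusted p = 4.1e-04). Without that library they were -0.34 and -0.41 (limma adjusted p = 0.00325 and 4.43e-04). BBC3 stood at 3.10, 2.19 and 2.88 FPKM without doxycycline, at 2.04, 2.18 and 1.86 at 24 h, and at 1.86, 1.43 and 1.90 at 48 h. Its change of -0.44 at 48 h (limma adjusted p = 0.00277) was -0.37 without control library 1 (adjusted p = 0.00713). The 24 h change of -0.29 (adjusted p = 0.0484 in limma) became -0.22 (adjusted p = 0.0996). On median-centred values BBC3 was at +0.16 at 48 h (limma adjusted p = 0.475), the opposite sign. Rescaled BBC3 stood at 0.867, 1.04 and 0.603 FPKM at 48 h. At such levels FPKM + 1 shrinks falls, so the centred sign cannot be read as a rise.

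On unnormalised values limma called no member at 3, 6 or 12 h. At an unadjusted p under 0.05, 2 were lower at 3 h (PMAIP1 and GADD45A) and 1 higher at 6 and at 12 h, beside 4.87%, 11.8% and 17.7% of all genes at 3, 6 and 12 h in either direction. At the adjusted threshold 0.0% of all genes were higher and 0.0175% lower at 3 h, 0.00875% and 0.472% at 6 h, and 0.752% and 3.33% at 12 h. In count, 1 member was higher and 2 were lower at 24 h, and 2 were higher and 2 lower at 48 h. Of all genes 9.55% were higher and 13.6% lower at 24 h, and 18.1% and 21.3% at 48 h. Without control library 1 the counts were 3 and 2 at 24 h, and 3 and 3 at 48 h, beside 22.4% and 22.3% and then 27.7% and 28.3% of all genes.

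MDM2 and BAX were the members most altered by control library 1. Unnormalised MDM2 stood at 8.62 FPKM in it and at 13.0 and 12.7 in the other controls, and at 10.1, 9.58 and 10.2 at 48 h, between them. With all 3 controls its change at 48 h was -0.16 (limma adjusted p = 0.256), and without library 1 it was -0.34 (adjusted p = 3.66e-04), at 24 h -0.31 (adjusted p = 0.00111). BAX stood at 143 FPKM in library 1, at 89.3 and 91.5 in the other controls and at 98.1, 94.9 and 98.2 at 48 h. Its change of -0.12 (limma adjusted p = 0.466) turned to +0.10 without that library (adjusted p = 0.00738). AEN was not called on all 3 controls: unnormalised values ran from 28.2 to 33.9 FPKM over all 18 libraries, with a change of less than 0.01 at 48 h (+0.0047, SE 0.0604, limma adjusted p = 0.962), so that its fall of -1.55 on rescaled values lay close to the median of all genes.

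The remaining members were weakly expressed in BE(2)-C cells. Unnormalised MDM4 stood at 1.86, 2.30 and 1.70 FPKM without doxycycline and at 2.43, 1.84 and 2.57 at 48 h (+0.15, limma adjusted p = 0.297). TP53INP1 stood at 0.669, 1.17 and 1.10 FPKM in the controls and at 1.29, 1.10 and 1.23 at 48 h (+0.17, limma adjusted p = 0.172), and was the 1 member not called lower on rescaled values (-0.50, adjusted p = 0.0603). Fitted without the filter it was called (adjusted p = 0.0185 in limma), where 83.7% of all genes were lower. MDM4 and TP53INP1 were called higher on median-centred values, by +0.67 and +0.93 (limma adjusted p = 0.00479 and 0.00134). Centring shifts every gene of a library alike, while FPKM + 1 shrinks the fall of genes this low. These centred rises therefore cannot be read as rises relative to other genes. A value of 0 FPKM in the unnormalised table stands at 0.0682 to 0.201 in the rescaled one, which bears most on genes this low.

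On rescaled values 3 of the 8 calls at 48 h rested on single libraries. SESN1, at -0.72, was lost without control library 2 or 0 (limma adjusted p = 0.116 and 0.135) and without library 0 or 2 of 48 h (adjusted p = 0.0821 and 0.185). PMAIP1, at -0.93, was lost without control library 2 or 0 (adjusted p = 0.0625 and 0.0581 in limma) or library 2 of 48 h (adjusted p = 0.117). MDM4, at -0.75, was lost without control library 2 (limma adjusted p = 0.0647) or library 2 of 48 h (adjusted p = 0.0565), and TP53INP1 was gained without control library 1 (adjusted p = 0.0198) or library 1 of 48 h (adjusted p = 0.0477). The falls of MDM2 (-1.54), AEN (-1.55), BBC3 (-1.26), BAX (-1.76) and GADD45A (-1.74) were called with any 1 library left out.

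At 48 h the wider lists were lower on rescaled values as nearly all genes were. Of 31 other p53 targets tested 28 were lower and none higher on rescaled values, at an unadjusted p under 0.05 too (limma), with a median of -1.11 beside -1.36 for all genes. Unnormalised values gave 10 higher and 5 lower, where 18.1% of all genes were higher and 21.3% lower. Median-centred values gave 19 higher and 4 lower, with a median of +0.31 beside +0.06, where 30.6% of all genes were higher and 21.9% lower. The list holds weakly expressed genes, to whose centred rises the limit given for MDM4 and TP53INP1 applies. SESN3, the sestrin named above, was among those higher unnormalised, at 8.21 ± 2.84 FPKM in the controls and 11.3 ± 0.768 at 48 h (+0.47, limma adjusted p = 0.0479). The 5 targets with the smallest rescaled p were all lower on rescaled and on unnormalised values. With 28 of 31 targets lower on rescaled values, that choice favoured falls on both kinds of values. These 5 therefore do not speak for the list, of which 10 were higher and 5 lower unnormalised. TP53I3, an oxidoreductase known as PIG3, went from 46.9 ± 12.0 to 30.2 ± 1.68 FPKM unnormalised (n = 3 each; -0.59, limma adjusted p = 8.26e-04), and TRIAP1, a small inhibitor of apoptosis, from 34.6 ± 6.78 to 22.9 ± 0.265 (-0.56, adjusted p = 3.38e-04). PLK2 went from 2.12 ± 0.109 to 1.04 ± 0.119 (-0.61, limma adjusted p = 3.6e-06), but was at +0.18 on median-centred values (adjusted p = 0.35). EI24 was at -0.17 (limma adjusted p = 0.0153) and RPS27L at -0.19 (adjusted p = 0.234). All 22 modulators tested were lower on rescaled values and none higher, by either p, with a median of -1.42 beside -1.36 for all genes, and 6 were higher and 2 lower unnormalised. The 2 were PPP1R13B (ASPP1), at -0.51 (limma adjusted p = 7.34e-06), and USP10, at -0.13 (adjusted p = 0.0264). The other 3 with the smallest rescaled p were not called unnormalised: RFWD2, a ubiquitin ligase for p53, at -0.08, the acetyltransferase KAT5 at -0.05 and USP7, a deubiquitinase of MDM2 and p53, at -0.11 (limma adjusted p from 0.279 to 0.66).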

How the data were processed

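Polyadenylated RNA was sequenced from 20 SHEP-21N and 18 BE(2)-C libraries, after ERCC spike-ins had been added at lysis of counted cells, per the labels' protocols. Per the submitters' processing notes, HISAT and Cufflinks 2.0.0 were used on hg19. Tables of FPKM, unnormalised and spike-in rescaled, with 23713 rows (92 spike-ins), were deposited by the authors, without a stated rescaling method. FPKM hold no read numbers, so depth is unknown. Of 49 samples 11 (DMSO or JQ1) were left out, and table columns were assigned to groups from their names.

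Here limma 3.58.1 (R 4.3.3) was fitted to log2(rescaled FPKM + 1) of genes whose unnormalised mean was 1 FPKM or more (11867 and 11433), with all time groups of an experiment in 1 fit and Benjamini-Hochberg adjustment over all tested genes, two-sided. All comparisons of an experiment with its controls share them. Alternatives were unnormalised and median-centred values, a pseudocount of 0.1, no filter, replicate number as a block, and each library left out. On simulated data with changes of 0.5, 1 and 2 (log2) the fit recovered 14.9%, 86.6% and 98.5% for SHEP-21N at 24 h (11867 genes) and 2.99%, 26.9% and 93.9% for BE(2)-C at 48 h (11433 genes). The simulated noise was independent between genes and few genes were changed. In the data whole libraries shifted together and many genes were called, so these rates need not hold for the real comparisons. Members and gene lists were chosen with earlier results of these data known. Named were all members, the 5 genes per list with the smallest adjusted p at the latest time, and the genes nearest in course to any member called at 3 or more times. A few genes are not reported here.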

Additional observations from a re-analysis of the deposited data

How the results depend on the processing

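Depth is unknown, and the precision is that of 2 or 3 libraries. AEN, PMAIP1 and GADD45A kept their 24 h calls in SHEP-21N cells under every alternative run. Other counts changed with the scale or with the library left out, and the cause was not tested. On unnormalised and on median-centred values, members in SHEP-21N cells were 1 and 1 higher and 3 and 3 lower at 4 h, 2 and 2 higher and 4 and 4 lower at 6 h, 3 and 3 lower at 8 h, 1 and 1 higher and 2 and 2 lower at 16 h, 1 and 1 higher at 24 h, and 5 and 4 lower from 8 to 24 h. On median-centred values 13.5% of all genes were higher and 13.6% lower at 4 h, and 27.1% and 24.1% at 6 h. The shares were 24.1% and 23.1% at 8 h, 21.7% and 25.4% at 16 h, and 29.6% and 32.2% at 24 h. From 8 to 24 h they were 12.0% and 16.1%, and 12.9% and 19.2% on unnormalised values. Without the filter 2 members were higher at 6 and at 8 h and 1 at 16 and at 24 h, TP53INP1 entering the test, and 1 was lower from 8 to 24 h. In that fit 0.821%, 1.33%, 2.67% and 3.5% of all genes were higher at 6, 8, 16 and 24 h. From 8 to 24 h 0.258% were lower.

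In BE(2)-C cells, on unnormalised values, on median-centred values and on unnormalised values without control library 1 (added after seeing the data), members were 1, 2 and 3 higher and 2, 1 and 2 lower at 24 h, and 2, 4 and 3 higher and 2, 1 and 3 lower at 48 h. Of all genes on median-centred values, 8.0% were higher and 9.81% lower at 24 h, and 30.6% and 21.9% at 48 h. Centred rises of weakly expressed genes are subject to the limit of FPKM + 1 given above. In the same order at 48 h, other targets were 10, 19 and 13 higher and 5, 4 and 7 lower, and modulators 6, 2 and 6 higher and 2, 3 and 6 lower. These 48 h changes had the opposite sign to the rescaled ones: MDM4 +0.15, +0.67 and +0.13, PMAIP1 +0.43, +0.49 and +0.32, SESN1 +0.55, +0.70 and +0.49, TP53INP1 +0.17, +0.93 and +0.047, AEN +0.0047 (unnormalised) and +0.084 (without the library), BBC3 +0.16 (median-centred) and BAX +0.10 (without the library).

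At 24 h in SHEP-21N cells unnormalised and median-centred values gave 14 and 13 higher among other targets and 5 and 5 among modulators. Of all genes 28.9% and 29.6% were higher on these values. Without the filter modulators were 0 higher and 4 lower, beside 3.5% and 13.4% of all genes. Replicate numbers did not pair the libraries (median r of the deviations of same-numbered libraries -0.0208 over 57 pairs and 0.0087 over 45). With the replicate block 1 member was lower from 8 to 24 h (AEN lost its call, limma adjusted p = 0.0865), and 0 modulators were higher at 24 h. TP53INP1 was called lower at 48 h (limma adjusted p = 0.0311), and no other call of a member at the late times changed. The shares of all genes called in that fit are not given, so these counts cannot be set beside them.

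With 1 library left out, members in SHEP-21N cells were 0 to 1 higher and 0 to 1 lower at 6, 8 and 16 h, 3 to 5 lower at 24 h and 0 to 7 lower from 8 to 24 h. The share of all genes that were lower ran from 5.9% to 46.4% at 24 h and from 0.0337% to 35.9% from 8 to 24 h in the same fits. At 6, 8 and 16 h, 0.0674% to 4.15%, 0.0927% to 2.7% and 0.463% to 10.9% of all genes were higher. The shares lower at these times were 0.303% to 5.15%, 0.211% to 2.85% and 0.202% to 4.89%. At 24 h other targets were 1 to 3 higher and 2 to 22 lower, and modulators 0 to 1 higher and 0 to 13 lower. The share of all genes that were higher at 24 h ran from 1.48% to 7.23% in these fits. In BE(2)-C cells at 48 h 5 to 9 members, 19 to 31 other targets and 17 to 22 modulators were lower, with 80.2% to 96.0% of all genes. The pseudocount of 0.1 moved no count of called genes by over 1.5 times.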
